A study of Mus musculus with 8 samples.

Results

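The proteasome genes of the mouse are described here across memory CD4 T cells of 2 kinds, with and without Rictor. Members are the genes whose symbol starts with Psma, Psmb, Psmc, Psmd, Psme, Psmf or Psmg followed by a digit, on probe sets annotated to that symbol alone. Of 18193 genes with such a probe set, 49 had a matching symbol. Psmc3ip and Psme3ip1 are named for binding a subunit and were counted apart, which left 47 genes of subunits, activators, an inhibitor and assembly chaperones. Of these 47, 45 were bright enough to be tested, among 11217 genes tested in all. Psma8 and Psmb11 were not. The immunoproteasome genes Psmb8, Psmb9, Psmb10, Psme1 and Psme2 are described apart. Psme2 was measured only on a probe set that it shares with Psme2b, so 4 of these 5 genes could be measured alone.

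The cells were T follicular helper (Tfh) and T helper 1 (Th1) memory cells sorted from spleen at day 60 after infection with the Armstrong strain of lymphocytic choriomeningitis virus (LCMV). The 4 groups were Rictor-null Tfh cells, wild-type (WT) Tfh cells, Rictor-null Th1 cells and WT Th1 cells, all from infected mice, with 2 arrays each. The labels call the arrays of a group biological replicates, and the RNA of an array came from a pool of 10 or more mice, so the spread between arrays is a spread between pools. The labels state neither the deleted part of Rictor nor a Cre driver, the sort gates or the age of the mice.

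The proteasome is the chamber in which cells degrade proteins that carry ubiquitin. Its 20S core stacks outer rings of alpha subunits on inner rings of beta subunits, of which Psmb5, Psmb6 and Psmb7 encode the catalytic ones. The 19S regulatory particle binds ubiquitin, unfolds the substrate with a ring of ATPases and feeds it into the core. In lymphocytes, and in other cells under interferon, Psmb8, Psmb9 and Psmb10 take the catalytic places and form the immunoproteasome, which shapes the peptides shown on MHC class I. Psme1 and Psme2 encode the activator PA28, also induced by interferon. Rictor defines mTOR complex 2, which phosphorylates Akt and related kinases.

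The 47 genes lie on 16 chromosomes in the RefSeq annotation of GRCm38.p6. Psmb8 (chromosome 17, 34198195 to 34201454) and Psmb9 (chromosome 17, 34182030 to 34187330) lie close together, and Psme1 lies on chromosome 14 (55578494 to 55581527). Psmd4 lies on chromosome 3 (95032688 to 95042614) and Psmd13 on chromosome 7 (140882394 to 140898642). RefSeq promoters of the same build were matched by gene identifier for 39 of the 47 genes, which gave 41 promoters. The 250 bases before the annotated start were searched on both strands for 3 motifs. These were the core of the interferon-stimulated response element (GAAA, any 2 bases, then GAAA again), TTCNNNGAA (the gamma-activated sequence) and TGANNNNGC (the core of the antioxidant response element, to which the proteasome gene activators Nfe2l1 and Nfe2l2 bind). The interferon-stimulated response element core was found in 3 of the 41 promoters (7.32%), those of Psmb3, Psmd4 and Psmd9, against 2.98% of 32851 mouse promoters. TTCNNNGAA was found in 2 (4.88%), those of Psmb8 and Psmg1, against 7.02%. TGANNNNGC was found in 16 (39.0%), against 35.2%.

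Promoters are printed for Psmd4 and Psmd13, whose genotype effects differed between the cell types, and for the immunoproteasome genes Psmb8 and Psmb9. This set was chosen after the values were seen. Each runs 5′ to 3′ on the gene's strand and ends at the base before the annotated start, and capitals mark a motif match. The Psmd4 match (the interferon-stimulated response element core, on the other strand) lies 80 to 71 bases before the start, the Psmb8 match (TTCNNNGAA) 97 to 89 and the Psmb9 match (TGANNNNGC) 60 to 52. Psmd13 had no match in this window. The regions are chr3:95042615-95042864 (minus strand) for Psmd4, chr7:140882144-140882393 (plus strand) for Psmd13, chr17:34197945-34198194 (plus strand) for Psmb8 and chr17:34187331-34187580 (minus strand) for Psmb9. A match is a description of the letters and shows no binding.
Psmd4: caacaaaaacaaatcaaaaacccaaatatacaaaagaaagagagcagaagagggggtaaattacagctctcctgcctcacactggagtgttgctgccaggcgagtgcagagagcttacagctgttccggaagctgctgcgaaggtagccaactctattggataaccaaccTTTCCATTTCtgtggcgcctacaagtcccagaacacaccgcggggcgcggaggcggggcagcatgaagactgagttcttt
Psmd13: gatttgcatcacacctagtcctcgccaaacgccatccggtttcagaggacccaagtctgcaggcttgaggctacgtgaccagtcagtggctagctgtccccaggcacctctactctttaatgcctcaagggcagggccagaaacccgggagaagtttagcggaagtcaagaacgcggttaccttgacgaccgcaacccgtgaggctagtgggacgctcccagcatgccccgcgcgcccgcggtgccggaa
Psmb8: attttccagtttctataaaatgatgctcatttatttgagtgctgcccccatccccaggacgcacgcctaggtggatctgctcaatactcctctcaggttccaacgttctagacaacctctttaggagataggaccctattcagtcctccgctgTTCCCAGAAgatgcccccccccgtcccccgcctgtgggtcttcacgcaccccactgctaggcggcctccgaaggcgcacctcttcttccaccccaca
Psmb9: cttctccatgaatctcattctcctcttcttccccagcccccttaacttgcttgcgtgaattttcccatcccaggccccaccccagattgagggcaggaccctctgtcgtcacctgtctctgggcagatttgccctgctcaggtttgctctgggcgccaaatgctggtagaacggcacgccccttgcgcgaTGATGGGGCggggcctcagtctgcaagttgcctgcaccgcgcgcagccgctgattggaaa

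Values are the signals of probe sets, in linear intensity, and changes are differences of group means of log2(signal + 32), which understates the change of dim genes. Each gene is represented by its brightest probe set. A gene was called, and is said to have risen or fallen, at a limma adjusted p under 0.05 (Benjamini-Hochberg over the 11217 genes of a comparison). Signals of different genes come from different probes and are not compared with each other. Median signals were 35.7 to 37.7 on the 8 arrays. All 5 CD4 T cell markers with a single-symbol probe set were above the filter, and the summed signal of 9 Tfh markers was 5989 to 6112 in Rictor-null Tfh cells, against 4115 to 4220 in WT Tfh cells, and 4306 to 4468 in Rictor-null Th1 cells, against 3208 to 3297 in WT Th1 cells. The summed signal of 7 Th1 markers was 16711 to 17052 in Rictor-null Tfh cells, against 15291 to 15416 in WT Tfh cells, and 16646 to 17324 in Rictor-null Th1 cells, against 13653 to 14003 in WT Th1 cells. The Tfh sum, to which Icos gave the most signal, was higher in Tfh than in Th1 cells within each genotype. Of the 9 genes only Cd200 ran the other way. It was 308.9 and 263.0 in Rictor-null Tfh cells, against 408.3 and 409.6 in Rictor-null Th1 cells. In WT cells it was 219.7 and 208.9 in Tfh, against 219.9 and 251.7 in Th1 cells. The Th1 sum was lower in WT Th1 than in WT Tfh cells through its brightest gene, the chemokine Ccl5: over the 6 other genes it was 7119 to 7253 in WT Tfh cells, against 7046 to 7567 in WT Th1 cells, and these overlap. Of those 6, Il2rb, the receptor chain shared by interleukins 2 and 15, fell in WT Tfh relative to WT Th1 cells (-0.40, limma adjusted p = 0.00326). Its Rictor-null groups overlapped (390 and 416 in Tfh, 414 and 420 in Th1 cells). Ifng ran the other way, at 1588 and 1605 in WT Tfh against 1449 and 1540 in WT Th1 cells. In Rictor-null cells the sum of the 6 was 6820 to 7349 in Tfh, against 8054 to 8242 in Th1 cells. Of markers of other cell types, 4 of 5 plasma cell, 2 of 2 CD8 T cell, 3 of 4 thymic epithelium, 3 of 6 myeloid, 1 of 5 B cell, 1 of 3 natural killer cell and 0 of 3 erythroid markers were above the filter. Jchain, Foxn1, Cd14, Itgam, Tyrobp, Cd79a, Ms4a1, Pax5 and Cr2 were below it. Above it were Sdc1, Mzb1, Xbp1 and Irf4 of the plasma cell list and Lyz2, Csf1r and Fcer1g of the myeloid list. The B cell marker above it was Cd79b, at 35.7 to 80.6. The plasma cell sum was 1619 to 1713 in Rictor-null Tfh cells, against 1461 to 1484 in WT Tfh cells, and 1639 to 1730 in Rictor-null Th1 cells, against 1394 to 1506 in WT Th1 cells. Of its genes Irf4, which activated T cells express too, rose with Rictor deleted in Tfh (0.48, limma adjusted p = 0.000979) and Th1 cells (0.42, adjusted p = 0.00230). In Tfh cells Cd8b1 rose (0.28, limma adjusted p = 0.0109), at 58.3 and 62.5 in Rictor-null against 45.2 and 43.3 in WT cells. The other CD8 T cell marker, Cd8a, ran the other way without passing (-0.075, limma adjusted p = 0.513). The epithelial marker Epcam fell in Tfh cells (-0.22, adjusted p = 0.0374), while Krt5 (-0.13) and Krt8 (-0.08) did not pass. The part of cell composition in any result was not tested, and in bulk samples fewer cells of a type and less RNA per cell cannot be told apart. Rictor itself gave 563 and 576 in Rictor-null Tfh cells, against 560.3 and 563 in WT Tfh cells, and 493 and 474 in Rictor-null Th1 cells, against 468 and 556 in WT Th1 cells. Where its probes lie relative to the deleted part is not known here, so this does not check the labels.

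Few proteasome genes passed the test between genotypes. With Rictor deleted, 3 of the 45 tested rose in Tfh cells and 0 fell, against 11.3% of all genes that rose and 2.31% that fell (13.6% in either direction). In Th1 cells 0 rose and 2 fell, against 7.55% of all genes that rose and 2.97% that fell (10.5% in either direction). The split of all genes moved with the scaling: after quantile normalization 6.60% rose and 3.85% fell in Tfh cells, and 5.96% rose and 4.80% fell in Th1 cells. The 95% interval of the change lay within 0.5 log2 units of 0 for 44 of 45 genes in Tfh cells and for 42 of 45 in Th1 cells, against 93.7% and 93.0% of all genes. The distance from the estimate to the end of its interval had a median of 0.155 log2 units over the 45 genes. The estimate itself was within 0.25 log2 units of 0 for 41 of the 45 in Tfh cells and 40 in Th1 cells, against 88.6% and 89.1% of all genes. These shares are near those of all genes.

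**Figure D1:**
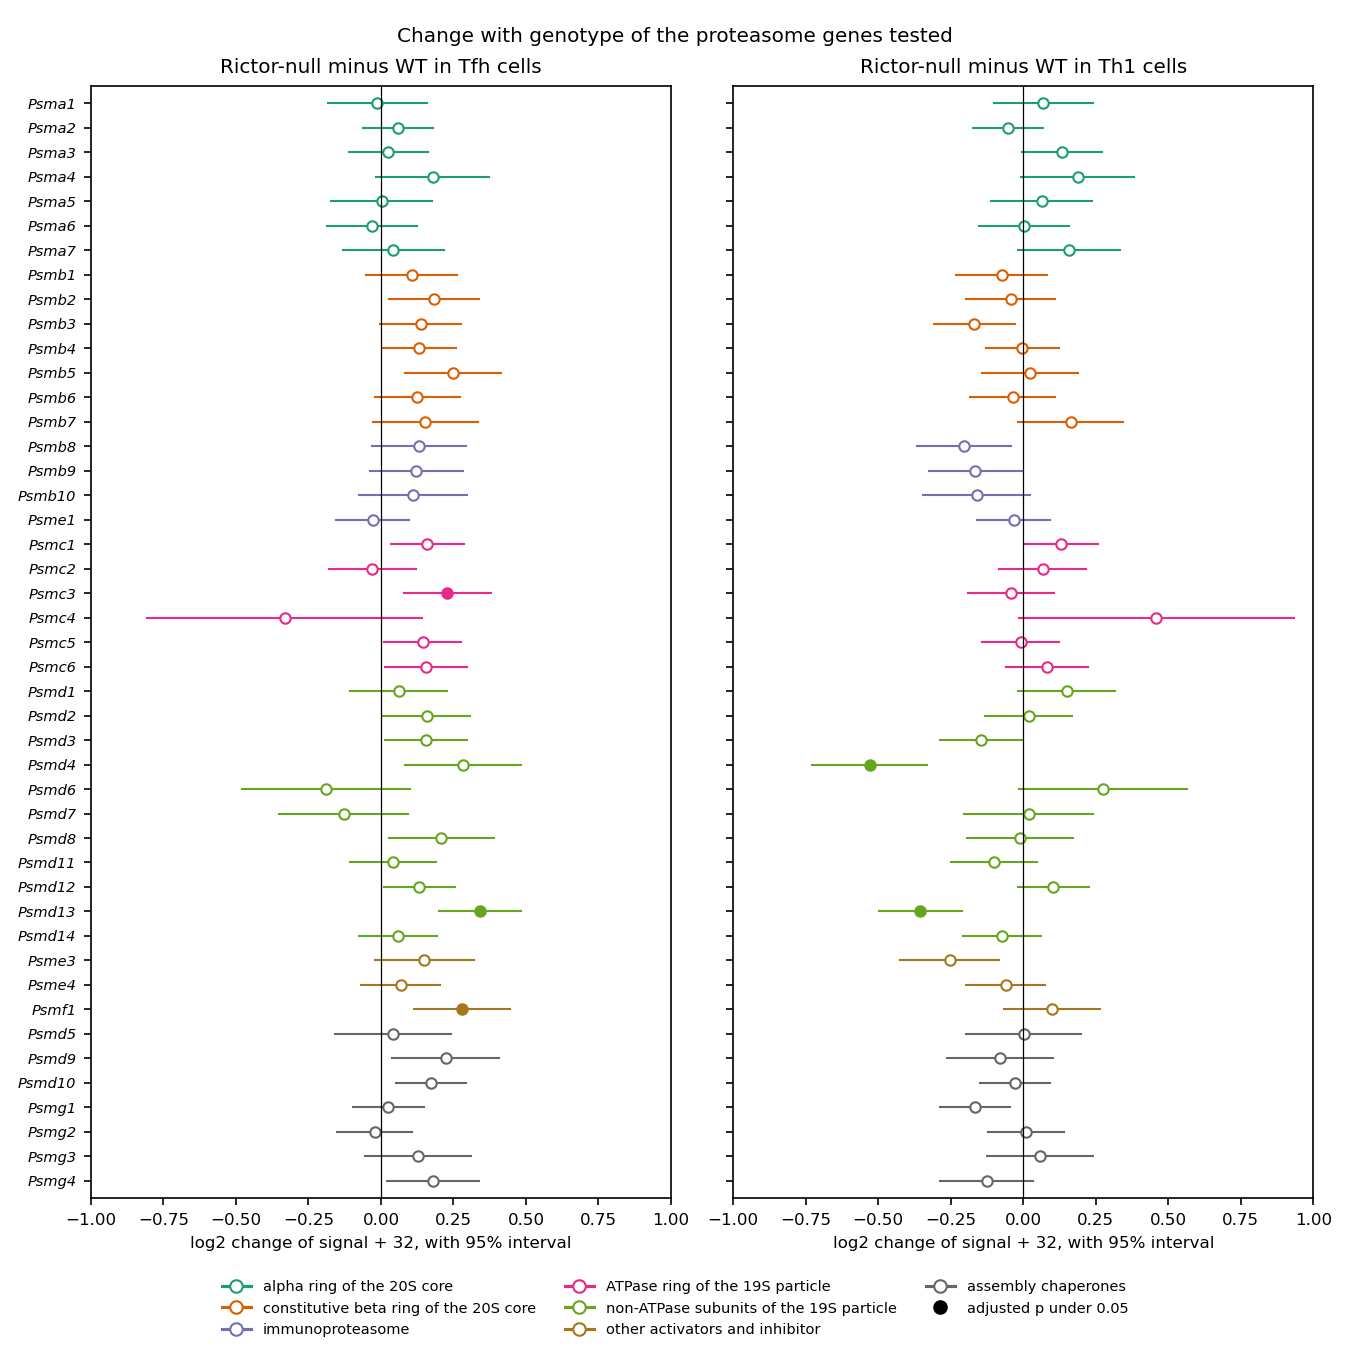
Change with genotype (Rictor-null minus WT, log2 of signal + 32) of the 45 proteasome genes tested, in Tfh cells on the left and Th1 cells on the right, coloured by kind of gene, with 95% intervals. Filled points passed at an adjusted p under 0.05: Psmc3, Psmd13 and Psmf1 lie to the right of 0 in Tfh cells, and Psmd4 and Psmd13 to the left of 0 in Th1 cells.

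Small shifts in 1 direction were more frequent than calls. In Tfh cells 37 of the 45 changes were above 0, with a median of 0.13 against 0.04 over all genes. The share of all genes above 0 is not given here. After quantile normalization these medians were 0.08 and -0.01. Both Rictor-null Tfh arrays lay above both WT Tfh arrays for 27 of 45 proteasome genes (60.0%), against 39.9% of all genes, and below both for 1, against 19.7%. In Th1 cells 21 changes were above 0 and 24 below, with a median of -0.01 against 0.00 over all genes. There both Rictor-null arrays lay above both WT arrays for 8 proteasome genes, against 28.3% of all genes, and below both for 14, against 27.7%. With 2 arrays a group, an exact permutation test of 1 gene cannot give a two-sided p below 0.333. At an unadjusted limma p under 0.05 there were 17 of 45 genes in Tfh cells and 9 in Th1 cells, against 30.3% and 24.8% of all genes. The Tfh median moved with single Rictor-null arrays: it was 0.17 without Rictor-null Tfh replicate 1 and 0.08 without Rictor-null Tfh replicate 2, against 0.06 and 0.02 over all genes. The number called was 16 and 1, where 25.3% and 6.90% of all genes were called. Leaving out WT Tfh replicate 1 gave 0 called (4.07% of all genes), and leaving out replicate 2 of that group gave 1 (4.49%). In Th1 cells the number called was 0 without Rictor-null Th1 replicate 1 (5.17% of all genes), 4 without replicate 2 of that group (6.22%) and 4 without either Rictor-null Tfh array (15.8%).

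Replicates of Rictor-null Tfh cells differed more than those of the other groups. The median SD of log2 values over the 45 genes was 0.10 in Rictor-null Tfh cells, against 0.02 in WT Tfh cells, and 0.06 in Rictor-null Th1 cells, against 0.04 in WT Th1 cells. Over all genes it was 0.07 in Rictor-null Tfh cells, against 0.03 in WT Tfh cells, and 0.05 in both Th1 groups. Rictor-null Tfh replicate 2 had a median deviation from the mean of the groups of 0.11 log2 units over the 45 genes, and replicate 1 of 0.02. The 6 other arrays lay between -0.06 and 0.01. The difference between these replicates was seen for the immunoproteasome (0.17 in replicate 2 and 0.00 in replicate 1) and the assembly chaperones (0.14 and -0.05), and ran the other way for the alpha ring (-0.03 and 0.10).

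**Figure D2:**
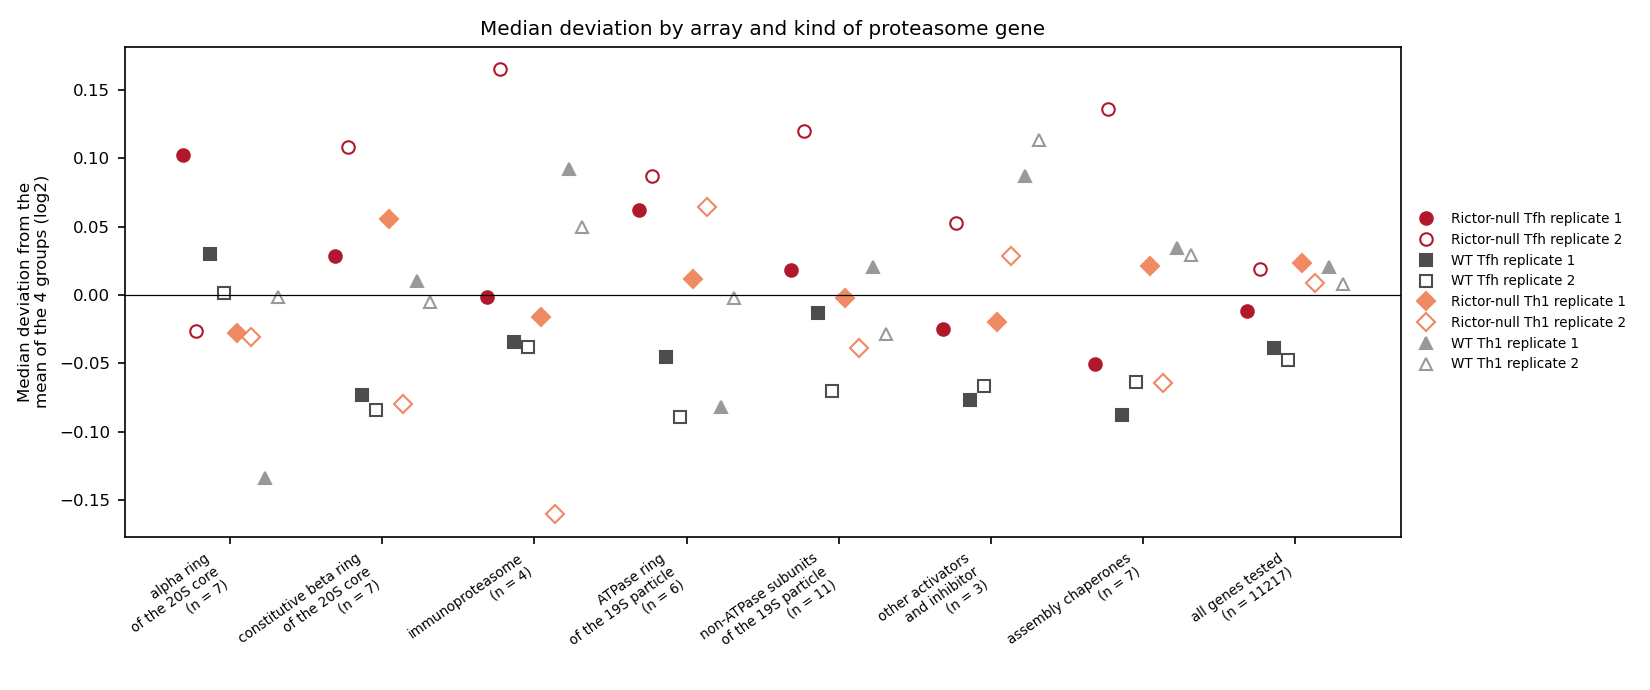
Median deviation of each array from the mean of the 4 groups (log2 of signal + 32) for 7 kinds of proteasome gene and for all 11217 genes, with filled symbols for replicate 1 and open symbols for replicate 2. Rictor-null Tfh replicate 2 is the highest array for 5 of the 7 kinds (all but the alpha ring and the other activators and inhibitor), and the arrays of all genes together lie between -0.05 and 0.02.

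The alpha ring of the core, which gates the entry of substrates, had small changes with genotype. None of its 7 genes was called in any comparison. Changes with genotype in Tfh cells ran from -0.03 (Psma6) to 0.18 (Psma4), with a median of 0.03, and in Th1 cells from -0.05 (Psma2) to 0.19 (Psma4), with a median of 0.07. Psma4 was 1361 and 1508 in Rictor-null Tfh cells, against 1262 and 1264 in WT Tfh cells, and 1413 and 1147 in Rictor-null Th1 cells, against 1099 and 1130 in WT Th1 cells. The Rictor-null arrays of Psma4 were above the WT arrays in both cell types, yet its limma adjusted p was 0.204 in Tfh and 0.221 in Th1 cells.

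All 7 genes of the constitutive beta ring were above 0 with Rictor deleted in Tfh cells, from 0.11 (Psmb1) to 0.25 (Psmb5), and 0 of 7 passed the test. In Th1 cells 2 of 7 were above 0, from -0.17 (Psmb3) to 0.16 (Psmb7), and again 0 passed. Psmb5 encodes the chymotrypsin-like catalytic subunit. It was 593 and 645 in Rictor-null Tfh cells, against 517 and 513 in WT Tfh cells, a change of 0.25 ± 0.07 (SE) that just missed the threshold (limma adjusted p = 0.0502). It passed with median centring (limma adjusted p = 0.0420) and when the probe sets of each gene were averaged (0.0355). Psmb5 has 1 probe set, so its own change stayed at 0.25 there and only the values of other genes moved. Without Rictor-null Tfh replicate 1 its change was 0.31, and without either Rictor-null Th1 array it stayed at 0.25. In Th1 cells Psmb5 was 626 and 535 with Rictor deleted, against 571 and 567 in WT, and these arrays overlapped. Psmb6, the caspase-like subunit, was 933 and 932 in Rictor-null Tfh cells, against 858 and 845 in WT Tfh cells, and 971 and 857 in Rictor-null Th1 cells, against 914 and 959.7 in WT Th1 cells. Psmb7, the trypsin-like subunit, was 388 and 405 in Rictor-null Tfh cells, against 360.2 and 347 in WT Tfh cells, and 465 and 379 in Rictor-null Th1 cells, against 381 and 362 in WT Th1 cells. The Tfh groups of Psmb6 and of Psmb7 did not overlap and their Th1 groups did, with Tfh changes of 0.13 (adjusted p = 0.229) and 0.15 (adjusted p = 0.237) by limma. Without Rictor-null Th1 replicate 2, the lower array of its group, the Th1 change of Psmb7 was 0.30 and passed (adjusted p = 0.0439).

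The immunoproteasome genes were bright on every array and 0 of the 4 measured alone was called in any comparison. Psmb8, which replaces Psmb5, was 2340.0 and 2690 in Rictor-null Tfh cells, against 2272 and 2303 in WT Tfh cells. In Th1 cells Psmb8 was 2245 and 2079 with Rictor deleted, against 2544 and 2441 in WT. Its arrays did not overlap in either cell type, and lay higher with Rictor deleted for Tfh (0.13 ± 0.07, limma adjusted p = 0.253) and lower for Th1 cells (-0.20 ± 0.07, adjusted p = 0.109), without passing. Psmb9, which replaces Psmb6, was 1051 and 1159 in Rictor-null Tfh cells, against 1029.9 and 993 in WT Tfh cells, and 1030.2 and 910.2 in Rictor-null Th1 cells, against 1099.6 and 1079 in WT Th1 cells. Psmb10, which replaces Psmb7, was 855 and 1025 in Rictor-null Tfh cells, against 857 and 873 in WT Tfh cells, and 889.6 and 813 in Rictor-null Th1 cells, against 989.9 and 921 in WT Th1 cells. Psmb9 and Psmb10 had the same order of groups in Th1 cells as Psmb8, while the Tfh arrays of Psmb10 overlapped. Their changes were 0.12 and 0.11 in Tfh cells and -0.16 each in Th1 cells.

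The difference between the genotype effects (Tfh minus Th1) was 0.33 ± 0.10 for Psmb8, 0.29 ± 0.10 for Psmb9 and 0.27 ± 0.12 for Psmb10, and none passed (limma adjusted p = 0.144, 0.183 and 0.247). All 3 passed without Rictor-null Tfh replicate 1, where the differences were 0.43, 0.36 and 0.40 (adjusted p = 0.0160, 0.0430 and 0.0267), and where 14.4% of all genes passed, against 1.21% with all arrays. In Th1 cells Psmb8 passed without either Rictor-null Tfh array, and these enter this comparison through the shared estimate of spread alone (adjusted p = 0.0370 in each). It also passed there after quantile normalization (-0.29, adjusted p = 0.0438). In Tfh cells Psmb8 and Psmb10 passed without Rictor-null Tfh replicate 1 (0.23, adjusted p = 0.0365, and 0.24, adjusted p = 0.0427). For the difference over all 45 genes, 16 had an unadjusted p under 0.05, against 19.1% of all genes. The number called was 14 with the first Rictor-null Tfh array left out. It was 0 without the first WT Tfh array (0.241% of all genes), and 1 without the second WT Tfh (0.267%) or the first Rictor-null Th1 array (0.276%). Psme1 was 2489 and 2368 in Rictor-null Tfh cells, against 2493 and 2460.4 in WT Tfh cells, and 2511 and 2427 in Rictor-null Th1 cells, against 2485 and 2572 in WT Th1 cells. Its changes were -0.03 in both cell types, with 95% intervals of -0.15 to 0.10 in Tfh and -0.16 to 0.09 in Th1 cells. The probe set shared by Psme2 and Psme2b had changes of -0.02 in Tfh and 0.02 in Th1 cells.

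**Figure D3:**
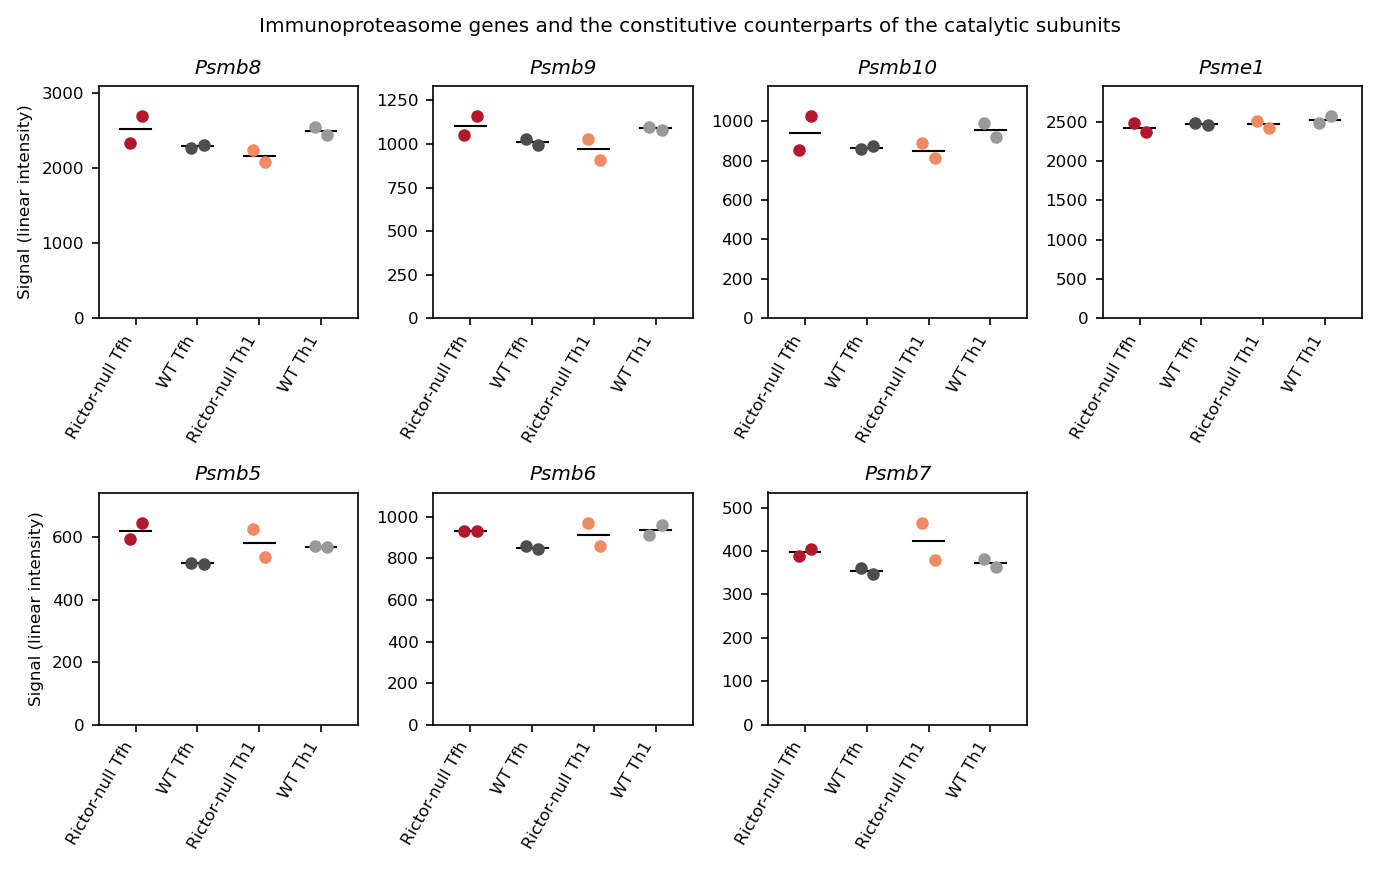
Signal (linear intensity, axis from 0) of Psmb8, Psmb9, Psmb10 and Psme1 and of the constitutive catalytic genes Psmb5, Psmb6 and Psmb7. Each point is 1 array and each bar the mean of 2, and the groups of a gene differ by small parts of its level, such as 2340.0 and 2690 for Psmb8 in Rictor-null Tfh cells against 2272 and 2303 in WT Tfh cells.

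Among the 6 ATPases that unfold substrates, Psmc3 (chromosome 2, 91054016 to 91059438) rose with Rictor deleted in Tfh cells. It was 588 and 673 in Rictor-null Tfh cells, against 541 and 523 in WT Tfh cells, a change of 0.23 ± 0.07 (limma adjusted p = 0.0479). In Th1 cells Psmc3 was 573 and 584 with Rictor deleted, against 606 and 588 in WT, a change of -0.04 (adjusted p = 0.745). The Tfh arrays did not overlap, and the call ended without any 1 of the 8 arrays other than Rictor-null Tfh replicate 1 (adjusted p from 0.0627 to 0.259). Without Rictor-null Tfh replicate 2 the Psmc3 change was 0.14. The call also ended after quantile normalization (0.15, limma adjusted p = 0.190), at a pseudocount of 1 (0.0759) and without the filter (0.0685). It ended too with the variance trend (0.0528), with the replicate block (0.0770) and with only the Tfh groups fitted (0.103). Psmc4 had the lowest Tfh and the highest Th1 change of the ATPase genes, and neither passed. It was 905 and 527 in Rictor-null Tfh cells, against 975 and 792 in WT Tfh cells, and 796 and 823 in Rictor-null Th1 cells, against 477 and 705 in WT Th1 cells. The other 4 ATPase genes had changes of -0.03 (Psmc2) to 0.16 (Psmc1) in Tfh cells and of -0.01 (Psmc5) to 0.13 (Psmc1) in Th1 cells, none called.

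The 11 non-ATPase subunits of the 19S particle held the proteasome genes with the largest called changes, Psmd4 and Psmd13. Psmd4 encodes a ubiquitin receptor of the particle. It was 1282 and 1574 in Rictor-null Tfh cells, against 1152 and 1172 in WT Tfh cells. In Th1 cells Psmd4 was 785 and 890.4 with Rictor deleted, against 1215 and 1229 in WT. The Rictor-null Th1 arrays were the lowest of the 8 and the Rictor-null Tfh arrays the highest, and the WT arrays of both cell types lay close together. Psmd4 fell in Rictor-null Th1 cells by 0.53 on the log2 scale (SE 0.09, 95% interval -0.73 to -0.33, limma adjusted p = 0.00335), which is 1.44-fold lower. In Tfh cells its change of 0.28 did not pass (adjusted p = 0.0628), though without Rictor-null Tfh replicate 1 it was 0.43 and did (0.00438). The difference between both genotype effects was 0.81 ± 0.13 (adjusted p = 0.0147), a test that 2 of 45 proteasome genes and 0.820% of all genes passed in this direction, and 0 proteasome genes and 0.392% of all genes in the other (1.21% in either). The fall in Th1 cells did not pass without Rictor-null Th1 replicate 1 (adjusted p = 0.0530). The difference did not pass without that array (0.0961), without the first (0.0914) or second WT Tfh replicate (0.0749) or without the signal filter (0.0759), where it lay between 0.73 and 0.82.

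Psmd13, a subunit of the lid of the 19S particle, moved in opposite directions with genotype in the 2 cell types. It was 121 and 130.4 in Rictor-null Tfh cells, against 88.6 and 96.1 in WT Tfh cells. In Th1 cells it was 89.0 and 99.0 with Rictor deleted, against 131 and 127 in WT. The high arrays were those of Rictor-null Tfh and WT Th1 cells and the low ones those of WT Tfh and Rictor-null Th1 cells, with no overlap. Psmd13 rose by 0.34 ± 0.06 in Rictor-null Tfh cells (limma adjusted p = 0.00647). It fell by 0.35 on the log2 scale (SE 0.06) in Rictor-null Th1 cells (adjusted p = 0.00508). The difference between both effects was 0.70 ± 0.09 (adjusted p = 0.00499). The Tfh call ended without WT Tfh replicate 1 (adjusted p = 0.0915) and the Th1 call without Rictor-null Th1 replicate 1 (0.0621). The difference did not pass without WT Tfh replicate 1 (0.65, adjusted p = 0.0522). None of these calls passed when all of the gene's probe sets were averaged: the Tfh change was then 0.13 (adjusted p = 0.108), the Th1 change -0.11 (0.211) and their difference 0.23 (0.125). The 9 other non-ATPase genes had changes of -0.19 (Psmd6) to 0.21 (Psmd8) in Tfh cells and of -0.15 (Psmd3) to 0.27 (Psmd6) in Th1 cells, none called.

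Of the other activators and the inhibitor, Psmf1 (chromosome 2, 151716062 to 151744199) rose in Rictor-null Tfh cells. Psmf1 encodes PI31, known for inhibiting the core in vitro. It was 198 and 188 in Rictor-null Tfh cells, against 149 and 157 in WT Tfh cells, a change of 0.28 ± 0.07 (limma adjusted p = 0.0340). In Th1 cells it was 190.5 and 199.95 with Rictor deleted, against 165 and 197 in WT cells, a change of 0.10 (adjusted p = 0.459). The WT Tfh arrays were the lowest of the 8. The call ended when 1 array was left out, whether of Rictor-null Tfh cells (adjusted p = 0.0656 without replicate 1 and 0.0623 without 2), WT Tfh cells (0.208 and 0.131) or Rictor-null Th1 cells (0.0543 for each). It also ended without the signal filter (0.0636) and after quantile normalization (0.118). Psme3, the nuclear activator PA28 gamma, was 127 and 157 in Rictor-null Tfh cells, against 124 and 125 in WT Tfh cells, and 118 and 118 in Rictor-null Th1 cells, against 142 and 151 in WT Th1 cells. Psme3 did not pass in either cell type (changes of 0.15 and -0.25, adjusted p = 0.218 and 0.0621). Its other probe set above the filter ran the other way in both (-0.02 and 0.23, adjusted p = 0.878 and 0.0769 over probe sets).

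The 7 assembly chaperones, which build the rings and the base and leave the finished particle, had 0 calls with genotype. Their changes ran from -0.02 (Psmg2) to 0.22 (Psmd9) in Tfh cells and from -0.17 (Psmg1) to 0.06 (Psmg3) in Th1 cells. Psma8, the alpha subunit of the testis proteasome, was listed at 11.1 to 13.7 on the 8 arrays, and Psmb11, the beta subunit of thymic cortical epithelium, at 19.4 to 28.6. Both were under the median of every array. Psmc3ip and Psme3ip1 were not called in any comparison.

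**Figure D4:**
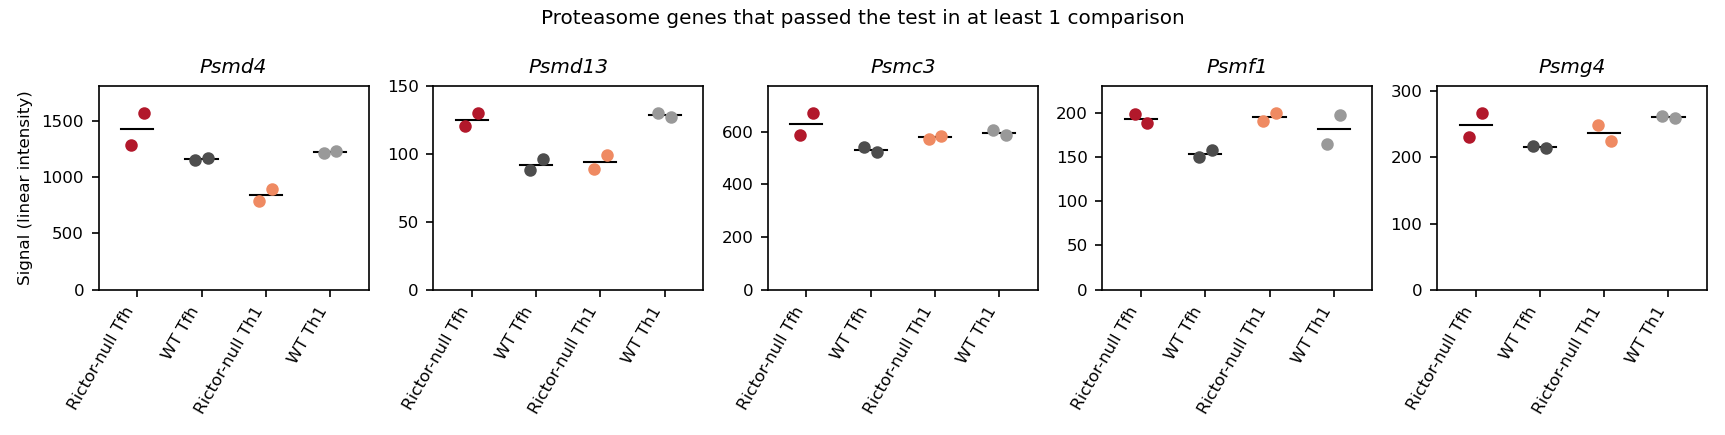
Signal (linear intensity, axis from 0) of the 5 proteasome genes called in at least 1 comparison. Each point is 1 array and each bar the mean of 2: Psmd4 is lowest in Rictor-null Th1 cells (785 and 890.4), and Psmd13 is high in Rictor-null Tfh and WT Th1 cells (121 to 131) and low in the other groups (88.6 to 99.0).

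Between the cell types, 0 proteasome genes rose and 2 fell in WT Tfh relative to WT Th1 cells, against 3.09% of all genes that rose and 11.6% that fell (14.7% in either direction). After quantile normalization 3.62% of all genes rose and 5.36% fell, and 1 proteasome gene was called. The 2 that fell were Psmd13 (-0.37 ± 0.06, limma adjusted p = 0.00595) and Psmg4 (-0.24 ± 0.07, adjusted p = 0.0478). Psmg4, a chaperone of the alpha ring (chromosome 13, 34162964 to 34178172), was 218 and 214 in WT Tfh cells, against 262 and 259.9 in WT Th1 cells, and 231 and 268 in Rictor-null Tfh cells, against 249 and 225 in Rictor-null Th1 cells. Its WT groups did not overlap and its Rictor-null groups did. The Psmd13 call ended without WT Tfh replicate 1 (adjusted p = 0.0869) and when its probe sets were averaged (0.121). The Psmg4 call ended without any 1 of 6 arrays, all but the Rictor-null Tfh ones (adjusted p from 0.0578 to 0.213), with either other pseudocount (0.0654 at 1 and 0.0542 at 100), without the filter (0.0750), after quantile normalization (0.140) and with the variance trend (0.0511) or the replicate block (0.0779).

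In Rictor-null cells 2 proteasome genes rose in Tfh relative to Th1 cells and 0 fell, against 3.27% of all genes that rose and 6.45% that fell (9.72% in either direction). After quantile normalization 3.93% of all genes rose and 4.90% fell. Psmd4 rose by 0.74 ± 0.09 (1.67-fold, limma adjusted p = 0.000524) and Psmd13 by 0.32 ± 0.06 (adjusted p = 0.0108). The Psmd13 call ended without Rictor-null Th1 replicate 1 (0.106) and when its probe sets were averaged (0.180). Over the 45 genes, both WT Tfh arrays lay above both WT Th1 arrays for 10 and below both for 24, against 19.7% and 48.0% of all genes. Both Rictor-null Tfh arrays lay above both Rictor-null Th1 arrays for 18 and below both for 1, against 21.3% and 28.0% of all genes. Medians were -0.07 in WT cells (-0.06 over all genes) and 0.06 in Rictor-null cells (-0.01 over all genes). The constitutive beta ring was below 0 for 7 of 7 genes in WT cells and above 0 for 6 of 7 in Rictor-null cells. The alpha ring was above 0 for 7 of 7 genes in WT and 6 of 7 in Rictor-null cells. Its median deviation from the mean of the groups was -0.1338 in WT Th1 replicate 1 and -0.0015 in replicate 2. In the WT Tfh arrays it was 0.0301 and 0.0014, so WT Th1 replicate 1 stood apart from the other WT arrays. For these counts by ring only the medians over all genes stand as background. The 2 comparisons share their arrays with those of genotype. At an unadjusted limma p under 0.05 there were 9 of 45 genes in WT and 10 in Rictor-null cells, against 33.7% and 24.4% of all genes. In WT cells the number called was 7 without either Rictor-null Tfh array (23.9% of all genes), 0 without WT Tfh replicate 1 (1.77%) and 1 without any 1 of the other 5 arrays (2.41% to 11.3%). In Rictor-null cells it was 9 without Rictor-null Tfh replicate 1 (14.8% of all genes) and 1 without Rictor-null Th1 replicate 1 (3.54%), with medians of 0.10 each. Eomes, listed here among natural killer cell markers, differed between the cell types as well: it was 1184 and 1029.7 in Rictor-null Tfh cells, against 85.4 and 79.7 in Rictor-null Th1 cells, and 912 and 833 in WT Tfh cells, against 66.9 and 68.3 in WT Th1 cells. Ncr1 and Klra8 were below the filter.

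Different probe sets of a gene did not always give the same change. Of 45 tested genes, 22 had several probe sets above the filter, with 38 besides those used. The change with genotype had the sign of the used one for 23 of 38 in Tfh and 24 of 38 in Th1 cells, and differed from it by more than 0.25 for 7 and 8. A fit over probe sets, adjusted over all of those above the filter, gives the values that follow. For Psmd4 the second probe set was 428 and 477 in Rictor-null Tfh cells, against 352 and 357 in WT Tfh cells, and 229 and 282 in Rictor-null Th1 cells, against 356 and 323 in WT Th1 cells. It fell in Rictor-null Th1 cells (-0.38, limma adjusted p = 0.0363) and had a difference of the effects of 0.70 (adjusted p = 0.0420). The third probe set of Psmd4 had changes of -0.05 in Tfh and -0.16 in Th1 cells, and its difference was 0.11 (adjusted p = 0.557). For Psmd13 the second probe set had the directions of the used one without passing (0.19, adjusted p = 0.0595, and -0.11, adjusted p = 0.262). A dimmer one, at 29.8 to 40.7, had the opposite directions (-0.15 and 0.15). The 4 probe sets of Psmf1 were all above 0 in Tfh cells, at 0.28, 0.22, 0.28 and 0.09, and of these the one at 56.4 to 79.3 passed in this fit (adjusted p = 0.0157) while the used one did not (0.0507). Psmc3 had 1 probe set.

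Some probe sets were low on the same pair of arrays, the second of Rictor-null Tfh and the first of WT Th1 cells. These were the lowest 2 of the 8 arrays for 10 of 83 proteasome probe sets, against 6.66% of all 23725 above the filter, and for 5 of the 45 used (Psma1, Psma5, Psmc2, Psmc4 and Psmd6). For Psmc4 the used probe set had changes with genotype of -0.33 in Tfh and 0.46 in Th1 cells, and the other 0.17 and 0.06. For Psmd6 the used one had -0.19 and 0.27, and the other 0.19 and 0.00. The second probe set of Psmb4 was 2168 and 1138 in Rictor-null Tfh cells, against 2181 and 1975 in WT Tfh cells, and 1922 and 2116 in Rictor-null Th1 cells, against 1249 and 1959 in WT Th1 cells, whereas the used one lay between 1975 and 2206 throughout. The dimmer probe set of Psmb8 was low on these arrays too, and gave -0.19 and 0.21. Without both arrays the Tfh median over the proteasome genes was 0.08, against 0.02 over all genes.

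**Figure D5:**
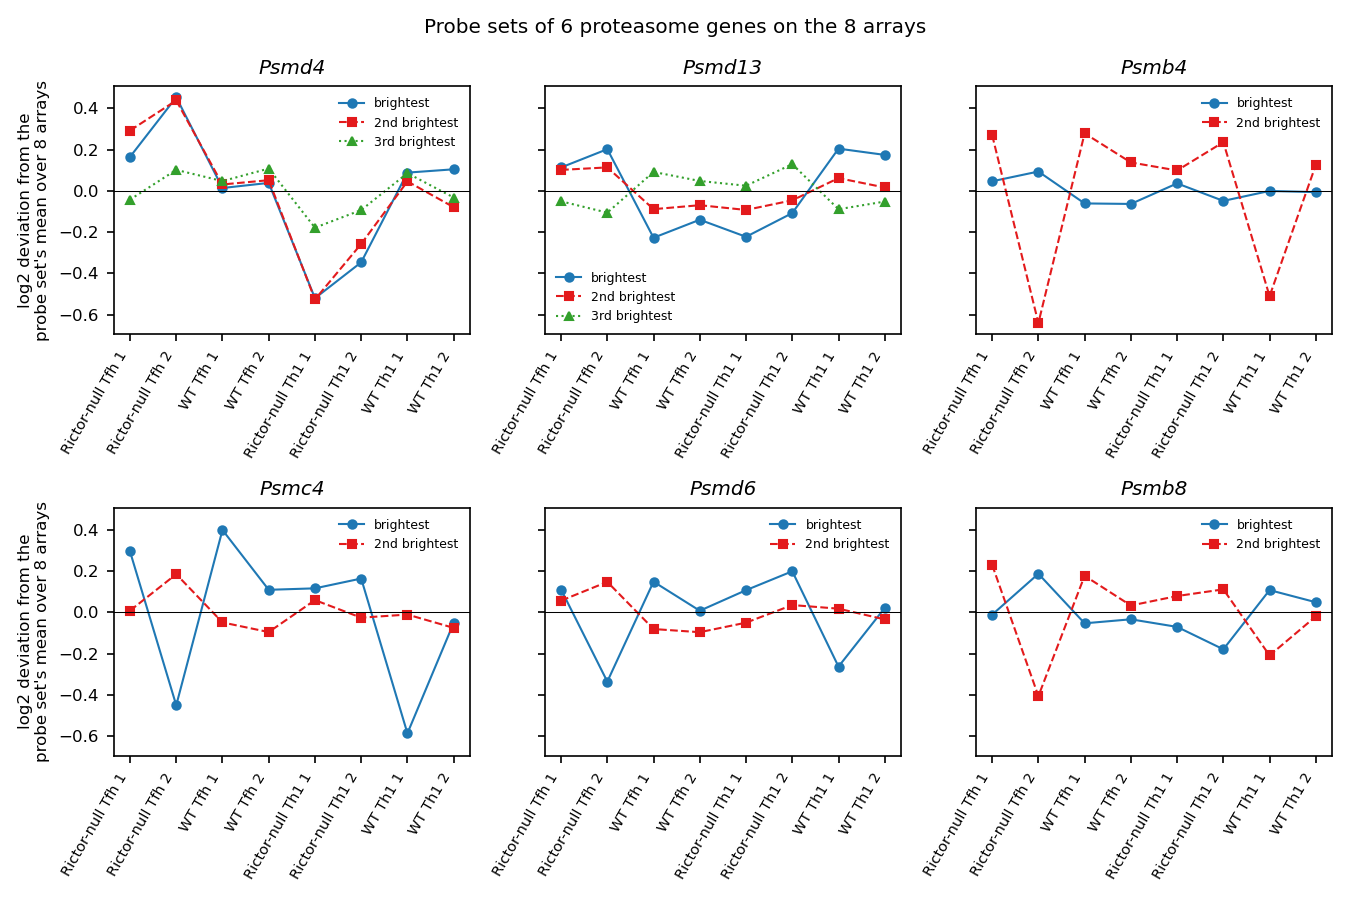
Deviation of each probe set above the filter from its own mean over the 8 arrays (log2 of signal + 32) for 6 proteasome genes, with arrays along the axis. The first and second probe sets of Psmd4 follow each other, the third of Psmd13 runs against the others, and the second of Psmb4 and Psmb8 and the first of Psmc4 and Psmd6 are low on the second Rictor-null Tfh and the first WT Th1 array.

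Genes that act with the proteasome were read from lists beside its subunits. Of 23 regulators and cofactors, 4 rose and 1 fell with Rictor deleted in Tfh cells, and 1 rose and 1 fell in Th1 cells. Of all genes 11.3% rose and 2.31% fell in Tfh cells, and 7.55% rose and 2.97% fell in Th1 cells. Their median changes were 0.04 and 0.00. Ngly1, the glycanase known for its part in activating Nfe2l1, was 739 and 737 in Rictor-null Tfh cells, against 530.3 and 504 in WT Tfh cells, and 704 and 724 in Rictor-null Th1 cells, against 488 and 478 in WT Th1 cells. Ngly1 rose in both cell types, by 0.49 ± 0.06 for Tfh (limma adjusted p = 0.000271) and by 0.53 ± 0.06 for Th1 (adjusted p = 0.000123). Nfe2l1, the factor that raises proteasome gene expression when the proteasome is inhibited, had changes of 0.03 and -0.15 and did not pass (adjusted p = 0.745 and 0.179). Usp14, the deubiquitinase bound to the 19S particle, was 325 and 303 in Rictor-null Tfh cells, against 459 and 515 in WT Tfh cells, and 288 and 305 in Rictor-null Th1 cells, against 445 and 412 in WT Th1 cells. On the probe set used, Usp14 fell in both (-0.58, limma adjusted p = 0.000415, and -0.49, adjusted p = 0.00121), while its 3 others had changes of -0.09 to 0.05 in Tfh and of -0.16 to 0.20 in Th1 cells and did not pass.

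Rad23b, which carries ubiquitinated proteins to the proteasome, rose in Rictor-null Tfh cells (0.38, limma adjusted p = 0.00212) and had a difference of the genotype effects of 0.45 (adjusted p = 0.0305). Its 3 other probe sets had changes of -0.01, 0.00 and 0.18 in Tfh cells, and of 0.28, 0.32 and 0.21 in Th1 cells. The first and second of these rose in Th1 cells (limma adjusted p = 0.0467 and 0.0125 over probe sets), and their differences of the effects were -0.29 and -0.32, opposite in sign to the one called, without passing. Ecpas, a scaffold that holds the particle on the core, rose in Tfh cells by 0.25 (adjusted p = 0.0214), and Midn, which brings nuclear proteins to the proteasome, by 0.19 (adjusted p = 0.0374). In WT cells Rad23b (-0.43) and Nfe2l2 (-0.21) fell in Tfh relative to Th1 cells, and in Rictor-null cells Ubqln4 fell (-0.25). In that WT comparison the other probe sets of Rad23b ran from -0.06 to 0.08 and that of Nfe2l2 had -0.08, without passing. Of the ubiquitin and E1 genes only Uba6 had a single-symbol probe set, and it was not called in any comparison.

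Of 14 genes of class I antigen processing and its regulators, 2 rose and 0 fell with Rictor deleted in Tfh cells, and 0 rose and 1 fell in Th1 cells, and the shares of all genes are those given for the regulators. The 2 of 14 that rose are near 11.3%. Tap2, a subunit of the peptide transporter, was 328 and 338 in Rictor-null Tfh cells, against 206 and 208 in WT Tfh cells, and 257 and 217 in Rictor-null Th1 cells, against 287 and 334 in WT Th1 cells. With Rictor deleted, Tap2 rose in Tfh cells by 0.61 (limma adjusted p = 0.000775) and fell in Th1 cells (-0.35, adjusted p = 0.0206), with a difference of 0.96 (adjusted p = 0.00401). Its partner Tap1 had changes of 0.05 and -0.07 and did not pass. Pdia3, an oxidoreductase of the peptide loading complex, was 502 and 542 in Rictor-null Tfh cells, against 236 and 219 in WT Tfh cells, and 372 and 277 in Rictor-null Th1 cells, against 299.9 and 391 in WT Th1 cells. It rose in Tfh cells (1.09, adjusted p = 0.000314), and the difference was 1.18 (adjusted p = 0.0136). A dimmer Pdia3 probe set, at 24.4 to 42.6, had a Tfh change of -0.05 and a difference of -0.09. Neither passed (limma adjusted p = 0.790 and 0.771 over probe sets). Between the cell types in WT, Tap2 (-0.51), Pdia3 (-0.53) and Irf1 (-0.33) fell in Tfh relative to Th1 cells and Irf8 rose (0.31). In Rictor-null cells Irf8 (0.39), Tap2 (0.45) and Pdia3 (0.65) rose.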

How the data were processed

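The deposited table holds the authors' intensity values, 1 signal per probe set on a linear scale, for 45037 probe sets and 8 arrays. MAS5 and RMA are named in the submitters' processing notes with no version and no role, and no label states the background correction or the scaling. Per the labels' protocols, labelling started from 100 ng of total RNA. Arrays have no read depth, and their number limits the precision. In the platform annotation 34945 probe sets carry 1 symbol, 932 several and 9160 none.

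Here the values were taken to log2(signal + 32). Probe sets above their array's median on at least 2 of 8 arrays were kept, and the brightest by mean log2 value stood for a gene. Group means were estimated in 1 linear model over the 4 groups (limma 3.58.1, R 4.3.3, eBayes with residual degrees of freedom 4 and prior 6.7), for 5 comparisons, with Benjamini-Hochberg adjustment. Values after ± are standard errors. The script was tested on simulated data, and figures were drawn with matplotlib 3.10.9.

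The members, gene lists and tests were chosen with earlier results of these data known. Values per array are given for immunoproteasome genes and their constitutive counterparts, tissue-restricted genes, called members, and at most 4 called genes per list and comparison. Other members are given as ranges, with the highest and lowest of a kind. Psma4, Psmc4, Psme3, the single probe sets, Rictor, Nfe2l1, Tap1, Eomes, Ccl5, Il2rb, Irf4, Cd8b1 and Epcam were given values after the data were seen. So were Xbp1, Sdc1, Mzb1, Cd79b, Cd200 and Icos. Alternatives changed the scaling, pseudocount, filter, choice of probe set, moderation, array weights, arrays in the fit and replicate number.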

Additional observations from a re-analysis of the deposited data

Results flagged for a closer look

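For 2 proteasome genes the change with genotype differed between Tfh and Th1 cells by the test of the difference itself (limma, Benjamini-Hochberg over 11217 genes). The difference (Tfh minus Th1) was 0.81 for Psmd4 (adjusted p = 0.0147), with a change of 0.28 in Tfh and -0.53 in Th1 cells. It was 0.70 for Psmd13 (adjusted p = 0.00499), with a change of 0.34 in Tfh and -0.35 in Th1 cells. With 2 arrays per group, no array could be tested as an outlier.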

How the results depend on the processing

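For the number of proteasome genes called, in the order Tfh, Th1, WT, Rictor-null and difference of effects, the reported values were 3, 2, 2, 2 and 2. Leaving out 1 array in turn, with the lone array of its group assumed to vary like the other groups, gave 0 to 16, 0 to 4, 0 to 7, 1 to 9 and 0 to 14. Quantile normalization gave 1 for Tfh, 6 for Th1 and 1 for WT, where 10.4%, 10.8% and 8.98% of all genes were called. Median centring gave 5 for Tfh (14.8% of all genes). For WT, a pseudocount of 1 gave 1 (13.4% of all genes), the variance trend 1 (14.5%) and array weights 9 (28.3%). A fit of only the 2 groups compared gave 7 for WT, a number that cannot be judged because the share of all genes in that fit is not given here. For the difference, no filter gave 1 (0.357% of all genes) and the mean over probe sets 1 (1.51%). Both arrays on which some probe sets were low were also left out together, a choice made after seeing the data. The median change was 0.0785 for Tfh, -0.0751 for Th1 and 0.1000 for Rictor-null with quantile normalization, and -0.0281 for WT and 0.0733 for the difference with the mean over probe sets. Leaving out 1 array gave medians of 0.0819 to 0.1669 for Tfh, 0.0338 to 0.1025 for Rictor-null and 0.0924 to 0.1766 for the difference, and leaving out both arrays 0.0819 for Tfh and 0.0895 for the difference. The causes were not tested, apart from the fewer arrays themselves. Same-numbered arrays deviated together in part only (correlations of 0.28 and 0.17 between genotypes, -0.28 and -0.23 between cell types, -0.51 for Rictor-null Tfh with WT Th1 and 0.00 for WT Tfh with Rictor-null Th1). The labels state no pairing, and these correlations cannot decide whether the numbers pair samples. With the replicate block the numbers called were 2, 2, 1, 2 and 2, against 9.90%, 8.49%, 8.94%, 7.10% and 0.811% of all genes. With the crossed pairing, chosen after seeing the data, they were 5 for WT and 6 for Rictor-null, against 24.3% and 15.7% of all genes. Of the values of single named genes under alternatives, 1115 kept their side of the threshold, 49 lost the call and 24 gained one. Of the calls, 0 reversed direction. Small changes that were not called could change sign. For Psmb5 in Th1 cells, Rictor-null replicate 2 (535) lay below both WT arrays (571 and 567), so leaving out replicate 1 turned its change negative. No scaling moved the median of all genes by over 0.1. Psmd13 rests on its brightest probe set, and Psmc3, Psmf1 and Psmg4 on adjusted p values near the threshold. With 2 arrays per group the number of arrays limits the precision.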
